A study of Ciona robusta with 6 samples.

Results

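In RNA-seq of sorted anterior neural plate cells of the tunicate *Ciona robusta*, 145 gene models varied together by replicate number, in the control group and in the *Lhx3/4* group alike. They were chosen from 16526 gene models in the count tables by their values in these same libraries. Levels were taken in CPM, the reads of a gene scaled to an equal total of gene reads in every library (counts per 1000000), and 9225 models had a mean of at least 5 CPM in both groups. A model was kept when, for 1 replicate number, the control and the *Lhx3/4* library were both at least 3 times, or both at most 1/3 of, each of the other 2 libraries of their own group. The 145 models were 1.57% of those past the CPM minimum. The differences between replicate numbers chose these genes, so they are given as a description with no test, and only the difference between *Lhx3/4* and control libraries was tested.

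All embryos were wildtype, grew at 18 °C and carried *Dmrt>GFP*, in which a *Dmrt* regulatory element drives green fluorescent protein in the anterior neural plate (ANP). The 3 control libraries came from embryos with *Dmrt>GFP* alone. The 3 *Lhx3/4* libraries came from embryos that also carried *Dmrt>Lhx3/4*, which misexpresses this factor under the same element. GFP-positive cells were isolated by fluorescence-activated sorting and polyadenylated RNA was sequenced. The labels call the libraries biological replicates and number them 1 to 3 in each group, but do not state what a number shared by a control and an *Lhx3/4* library marks. The study's general methods used gametes of wild-collected adults and ran separate trials on different days with other parents, without tying the library numbers to trials. The sort was on GFP, so it selected for *Dmrt>GFP* and not for *Dmrt>Lhx3/4* itself. The purity of the sorted cells was not given in the sources used here, and the cells of a library were a pool of embryos.

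*Lhx3/4* is a LIM-homeodomain transcription factor. The ANP gives rise to anterior neural structures and the oral region of the tadpole larva, while cardiopharyngeal progenitors (CPPs) are mesodermal cells that give rise to the heart and the pharyngeal muscles. The study asked whether *Lhx3/4* in ANP cells turned on genes of the CPP program. None of the 145 models is paired with a gene name in the tables used here, so each is given by its KH identifier and no function is stated for a single gene. CPM is not corrected for transcript length, so levels are compared between libraries and not between genes.

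The libraries held 52637768 to 71200276 reads assigned to genes, and 3 reads corresponded to 0.0421 to 0.057 CPM. The misexpressed factor itself, *Lhx3/4*, was at 34.7, 51.3 and 29.2 CPM in controls 1 to 3 and at 681, 608 and 553 CPM in *Lhx3/4* libraries 1 to 3. The summed level of 5 ANP markers (*Six3/6*, *Onecut*, *Msx*, *Tyrp-1* and *Chordin*) was 1985 to 2784 CPM in controls and 249 to 455 CPM in *Lhx3/4* libraries. The summed level of 3 cardiopharyngeal markers (*Foxf*, *Irxb* and *Hand.r*) was 36.4 to 79.2 CPM in controls and 221 to 294 CPM in *Lhx3/4* libraries. Of 3 genes taken as muscle markers, the *TTN* homolog had 1, 0 and 0 reads in controls and 83, 479 and 151 reads in *Lhx3/4* libraries. The other two, KH.S654.1 and KH.S654.2, were at 0.24 to 1.85 CPM in controls and at 0 to 0.19 CPM in *Lhx3/4* libraries. None of these marker genes was a member.

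The 145 genes fell into 6 patterns of very unequal size. By far the most common was a low level in both libraries numbered 3, which 87 genes showed. The other 58 genes spread over the remaining patterns. Number 1 was high in 10 genes and low in 20, number 2 was high in 15 and low in 7, and number 3 was high in 11. Of these 58, 5 met the rule for 2 patterns at once and are counted in both. In the heat map of all members, the 2 libraries of the odd number stood out together in each pattern, and the block low in number 3 was also paler in *Lhx3/4* 1 and 2 than in controls 1 and 2.

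**Figure D1:**
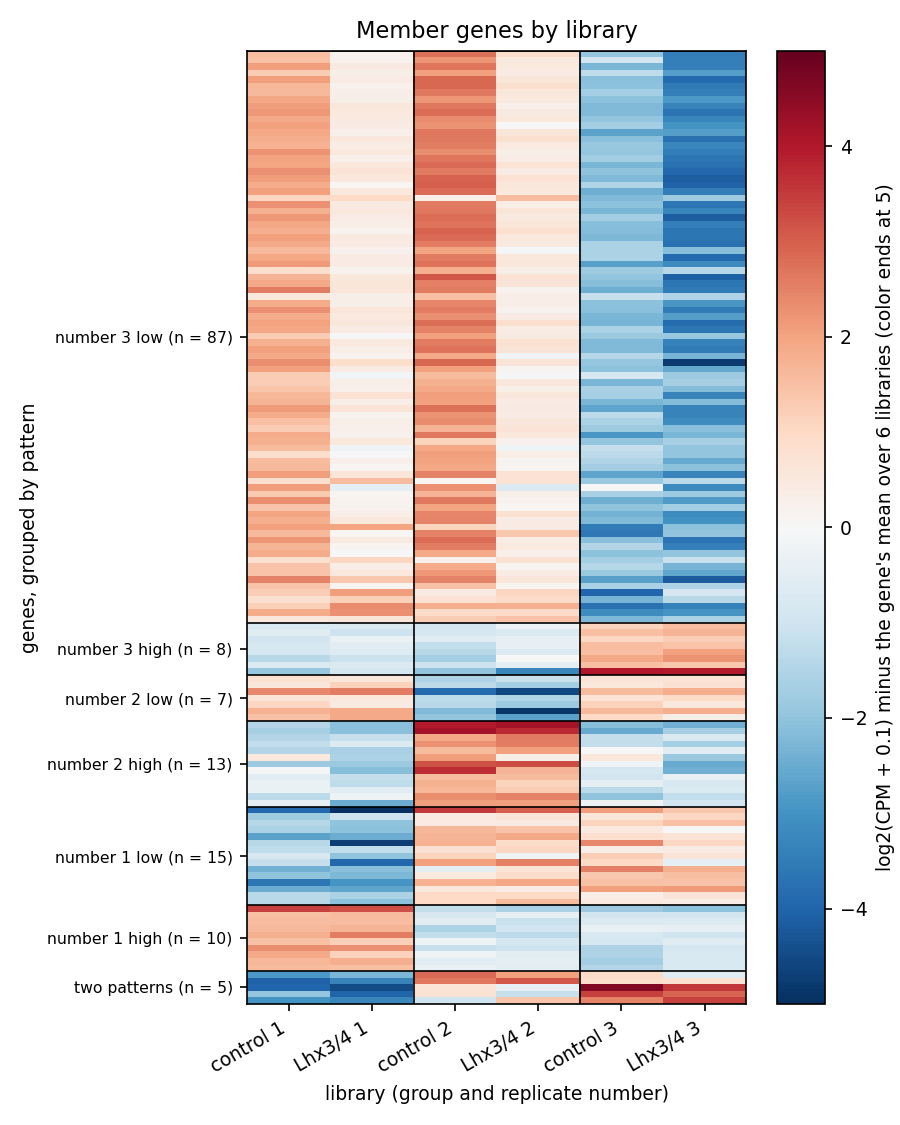
Heat map of the 145 member genes (rows, grouped by pattern) in the 6 libraries (columns, paired by replicate number), colored by log2(CPM + 0.1) minus the mean of the gene over the 6 libraries. The 87 genes low in number 3 form the largest block, and the 5 genes with 2 patterns are set apart at the bottom.

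The 87 genes low in number 3 shared more than the low libraries. Set against control 2, their median level was 66.9% in control 1 and 4.55% in control 3. It was 24.6%, 26.7% and 1.98% in *Lhx3/4* libraries 1, 2 and 3. The controls 1 and 2 were thus the highest libraries, *Lhx3/4* 1 and 2 were intermediate, and both libraries numbered 3 were lowest. Together the 87 genes took 1.77% and 2.81% of the gene reads in controls 1 and 2, but 0.142% in control 3. They took 0.66%, 0.733% and 0.0604% in *Lhx3/4* 1, 2 and 3.

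The rule did not set the order of numbers 1 and 2 in this set. Control 2 exceeded control 1 in 78 of the 87 genes (89.7%), against 42.9% of all 9225 genes past the CPM minimum. *Lhx3/4* 2 exceeded *Lhx3/4* 1 in 51 of 87 (58.6%, against 41.1%). The median log2 ratio of control 2 to control 1 was 0.58 over the 87 genes and -0.06 over all genes past the minimum, while its SD over genes was about the same (0.48 and 0.49). The correlation across the 6 libraries between a gene's profile and the median profile of the set was at least 0.95 in 75 of the 87 genes and in 0 of the 58, a difference that the rule largely fixes through number 3. Over all 9225 genes it reached this value in 202, and the 6 libraries that make up each profile are the same ones that chose the members.

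**Figure D2:**
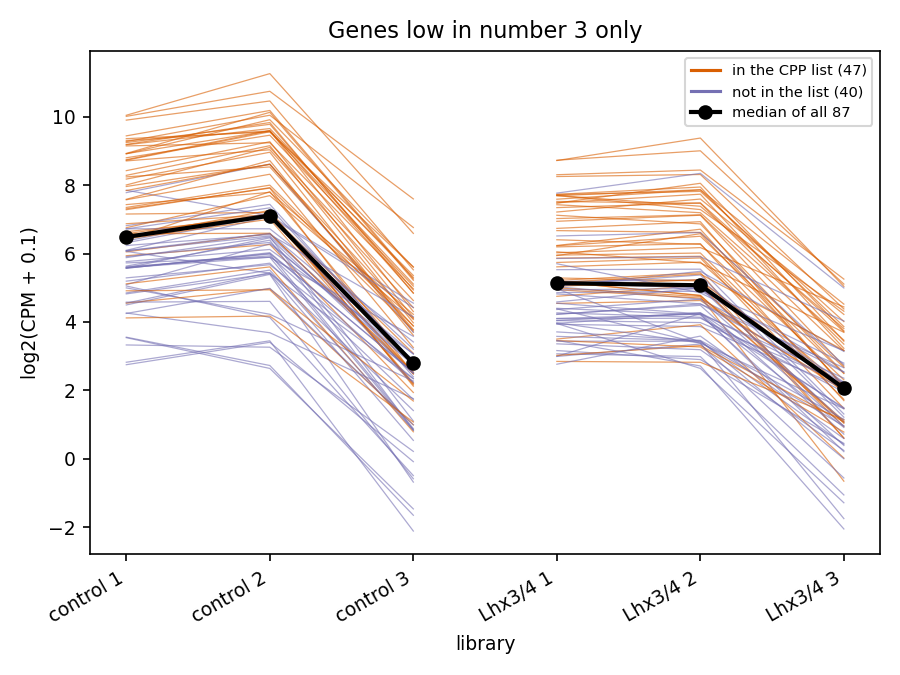
Level of each of the 87 genes low in number 3 (thin lines, log2(CPM + 0.1)) in the 6 libraries, with the median in black. Genes of the study's CPP list (47) are orange and the other 40 are purple, and the median falls in both libraries numbered 3.

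The genes of highest level in this set show the shared profile. KH.C4.343 was at 1057, 2459 and 96.2 CPM in controls 1 to 3, and at 422, 666 and 32.8 CPM in *Lhx3/4* 1 to 3. KH.C4.635 was at 1034, 1719 and 194 CPM in controls and at 425, 514 and 34.4 CPM in *Lhx3/4* libraries. In both genes each *Lhx3/4* library lay under the control of its own number, although the *Lhx3/4* libraries 1 and 2 lay above control 3, so that the groups overlapped.

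KH.L4.23 was at 958, 1412 and 45.9 CPM in controls and at 305, 318 and 20.7 CPM in *Lhx3/4* libraries. KH.C3.316 was at 620, 1058 and 108 CPM in controls and at 316, 348 and 38.0 CPM in *Lhx3/4* libraries. KH.C1.728 was at 696, 1165 and 38.2 CPM in controls and at 212, 247 and 10.7 CPM in *Lhx3/4* libraries. The order of the 6 libraries was the same in all 5 of these genes: control 2, control 1, *Lhx3/4* 2, *Lhx3/4* 1, control 3 and *Lhx3/4* 3.

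The widest gaps between the libraries numbered 3 and the rest were in KH.C5.591, KH.L29.1 and KH.C2.204. Their mean levels were 7.34, 11.0 and 53.2 CPM, against a median of 52.1 CPM over the 87 genes. KH.C5.591 was at 6.96, 10.8 and 0.131 CPM in controls and at 15.6, 10.3 and 0.197 CPM in *Lhx3/4* libraries. KH.L29.1 was at 23.8, 24.2 and 0.566 CPM in controls and at 10.9, 6.45 and 0.14 CPM in *Lhx3/4* libraries. KH.C2.204 was at 89.6, 154 and 4.25 CPM in controls and at 32.8, 37.7 and 1.42 CPM in *Lhx3/4* libraries. In KH.C5.591 the *Lhx3/4* library was above its control at numbers 1 and 3 and close to it at number 2, unlike in the other two. Only 3 of the 87 genes were under 1 CPM in both libraries numbered 3, and 0 of the 87 had 3 reads or fewer in any library.

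The *Lhx3/4* and control libraries were next compared within each number, a difference that the rule did not use. In the 87 genes low in number 3 the median log2 ratio of *Lhx3/4* to control was -1.45 at number 1, -1.90 at number 2 and -1.02 at number 3. These medians correspond to levels 2.74, 3.72 and 2.03 times lower. The *Lhx3/4* library was below its control at all 3 numbers in 69 of the 87 genes, where 19.2% of genes past the CPM minimum were. It was above at all 3 in 6 genes, against 37.2%. Every *Lhx3/4* library lay below every control in 1 of the 87 genes, against 8.99% of all tested genes and 669 of the 9225 past the CPM minimum. The rule holds control 3 to at most 1/3 of controls 1 and 2, which makes such a separation harder to reach in the 87. In most of these genes control 3 lay under *Lhx3/4* 1 and 2, so that the groups overlapped.

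**Figure D3:**
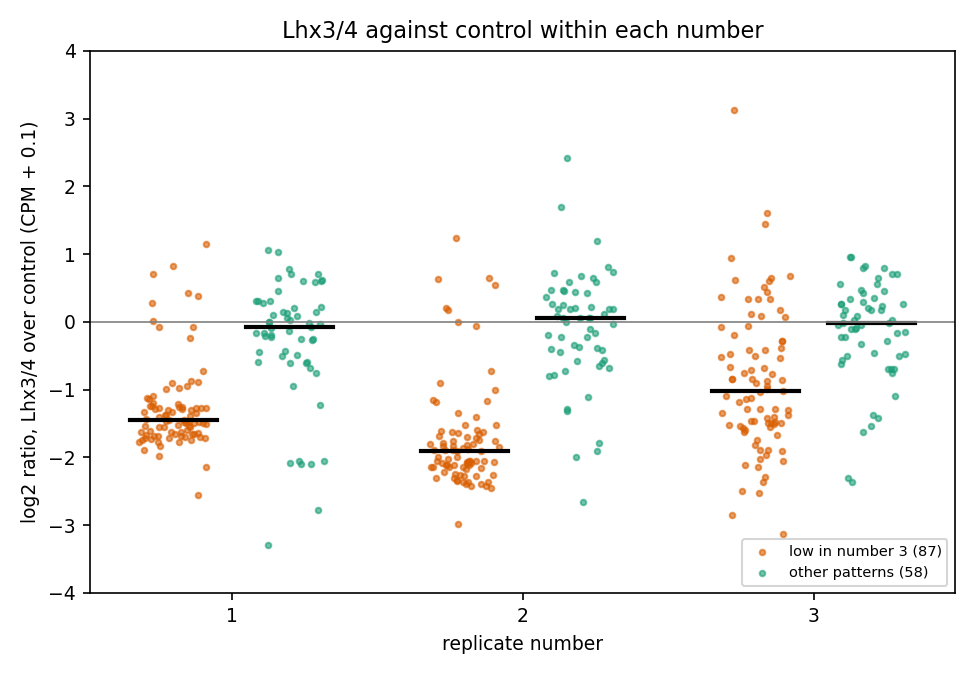
Log2 ratio of *Lhx3/4* to control CPM within each replicate number, 1 point a gene, for the 87 genes low in number 3 and the 58 genes of other patterns. The median of the 87 genes lies at -1.45, -1.90 and -1.02 for numbers 1, 2 and 3, while that of the 58 lies near 0.

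Across all genes, edgeR's quasi-likelihood test without a term for replicate number called 0 of the 145 members, where it called 1.85% of 13641 tested genes higher and 2.92% lower in *Lhx3/4* libraries (2.81% lower among genes past the CPM minimum). Called genes had a p, adjusted by Benjamini-Hochberg over all tested genes, under 0.05 and differed by 0.58 or more on the log2 scale. At an unadjusted p under 0.05 there were 4 members, against 15.9% of all tested genes. DESeq2 called 2 members lower (5.47% of all genes lower, 3.5% higher). It gave no adjusted p to 10 of the 58 genes of other patterns, against 11 of the 9225 past the CPM minimum, and so could not call these. The rule itself selects genes with a wide spread within each group, which widens the error of this test. The median standard error of log2 fold change was 1.15 in the 87 genes and 0.21 over the genes past the CPM minimum. The median log2 fold change was -1.74 in the 87 genes and -0.00 in the 58.

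With replicate number as a block, edgeR called 75 members lower and 0 higher in *Lhx3/4* libraries, against 6.94% and 4.72% of all tested genes (6.51% lower among genes past the CPM minimum). Of the 75, 69 were among the 87 genes low in number 3, with a median log2 fold change of -1.59 and a median standard error of 0.20, and 6 were among the other 58. The rule requires the 2 libraries of a number to move alike, which favors this fit. A further comparison, chosen after seeing the data, left out both libraries numbered 3 and used no block. It compared 2 with 2 libraries, and edgeR called 53 of the 87 genes lower and 0 of the 57 tested genes of other patterns, where 2.58% of all genes were called lower and 1.27% higher (2.88% lower among genes past the CPM minimum). All 6 libraries chose the members, so this comparison is not independent of the choice. Leaving out number 3 removed the odd library of the 87 genes, but not that of genes odd at number 1 or 2. The median standard error in this fit was 0.27 in the 87 genes and 1.23 in the other patterns. The 0 of 57 therefore cannot be read as an absence of difference. With the block, DESeq2 called 79 members lower and 1 higher, against 8.92% and 5.86% of all genes. The median log2 fold change of the 87 was -1.79 with both libraries numbered 3 left out.

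The 2 genes followed in every fit were KH.C1.650 and KH.C3.814. KH.C1.650 was at 52.9, 59.3 and 11.9 CPM in controls and at 8.85, 7.36 and 1.26 CPM in *Lhx3/4* libraries. It is the only gene of the 87 in which every *Lhx3/4* library lay below every control. Its log2 fold change was -2.89 ± 0.81 (SE, n = 3 against 3) with an edgeR adjusted p of 0.111, and -2.98 ± 0.18 with an adjusted p of 9.2e-05 in edgeR with the block. Without number 3 in either group the edgeR adjusted p was 0.00628.

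KH.C3.814 was at 257, 550 and 24.6 CPM in controls and at 75.3, 105 and 4.21 CPM in *Lhx3/4* libraries. Its groups overlapped, since *Lhx3/4* 1 and 2 lay above control 3. Its log2 fold change was -2.23 ± 1.24 (SE) with an edgeR adjusted p of 0.463, and -2.28 ± 0.16 with an adjusted p of 1.5e-04 in edgeR with the block. Without number 3 in either group the log2 fold change was -2.22 ± 0.42 and the edgeR adjusted p 0.0574, so that the fold was nearly the same but the gene did not pass.

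A minority of the set did not have the lower level. In 9 of the 87 genes the blocked log2 fold change was above 0, from 0.07 to 1.41, and edgeR called none of the 9. DESeq2 with the block called 1 of them higher. KH.C2.477, for example, was at 231, 138 and 23.3 CPM in controls and at 218, 325 and 31.8 CPM in *Lhx3/4* libraries. KH.S2809.1 was at 11.6, 6.52 and 0.218 CPM in controls and at 20.8, 10.3 and 2.65 CPM in *Lhx3/4* libraries, the largest blocked fold change of the 9. None of the 9 was in the CPP list described next.

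The study lists 1629 genes with above-average expression in CPPs in single-cell data from elsewhere, a choice that did not use these libraries. This list held 47 of the 87 genes low in number 3 (54.0%), 7 of the 58 others (12.1%) and 1283 of the 9225 genes past the CPM minimum (13.9%). The 47 genes are 3.66% of the list's genes past the minimum. They behaved more uniformly than the other 40. At number 1 their median log2 ratio of *Lhx3/4* to control was -1.55 with an SD over genes of 0.25, against -1.26 and 0.85 in the other 40. At number 2 the medians were -2.08 (SD 0.29) and -1.78 (SD 1.01), and at number 3 they were -1.40 (SD 0.79) and -0.60 (SD 1.14). The listed genes also had more reads, with a median of mean CPM of 135 against 25.8 in the other 40. Over all genes past the minimum it was 53.3. The part of level in the smaller spread and in the share on the list was not tested.

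Control 2 exceeded control 1 in all 47 of the listed genes and in 31 of the other 40. Of the 47, edgeR with the block called 42 lower in *Lhx3/4* libraries and 0 higher, and of the 40 it called 27 lower and 0 higher, where 6.94% of all tested genes were lower. Without both libraries numbered 3 or a block it called 34 and 19 lower, where 2.58% of all tested genes were lower. The direction is opposite to that of the summed cardiopharyngeal markers, which were higher in each *Lhx3/4* library. The study itself reported that most affected genes of its list fell, whereas *Foxf*, *Hand.r* and *Irxb* rose. The list was drawn by level in CPPs and not by absence from other cells, so it is not a like measure to these markers. The summed cardiopharyngeal markers were also lowest at number 3 in each group, at 36.4 CPM against 73.7 and 79.2 in controls and 221 against 270 and 294 in *Lhx3/4* libraries, while the summed ANP markers were highest at number 3 in each group. Single markers differed from these sums. *Hand.r* was at 0.618, 3.19 and 2.16 CPM in controls and at 5.55, 6.35 and 12.1 CPM in *Lhx3/4* libraries, and so was not lowest at number 3. Of the 5 ANP markers, *Six3/6* was highest in control 2, and *Onecut* and *Msx* were highest in *Lhx3/4* 2. The markers' part in the low level at number 3 was not tested. In sorted bulk RNA, fewer cells of a type and less RNA per cell cannot be told apart.

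The study's other lists were counted in the same way. Of 327 annotated transcription factors, 6 were among the 87 genes (6.90%) and 0 among the 58, against 2.20% of genes past the CPM minimum. KH.S423.6, the highest of these 6 in control 2, was at 419, 525 and 21.3 CPM in controls and at 139, 117 and 5.58 CPM in *Lhx3/4* libraries. KH.S589.4 was at 22.5, 41.9 and 0.522 CPM in controls and at 7.88, 18.8 and 1.78 CPM in *Lhx3/4* libraries, lower at numbers 1 and 2 but higher at number 3. With the block, edgeR called 5 of the 6 lower and 0 higher, KH.S589.4 being the one not called, where 6.94% of all tested genes were lower. The 1000 genes of highest control level, a list made from these control libraries, held 23 of the 87 (26.4%) and 0 of the 58, against 10.8% of genes past the CPM minimum. The neural tube closure list and the polarity and adhesion list held 1 member each, KH.S529.5 and KH.C9.186. Each was 1.15% of the 87 genes, against 0.26% and 0.802% of genes past the CPM minimum. Of 26 *Foxf* targets, 18 passed the minimum (0.195% of the genes that did), and 0 of these were members. These lists are too short for counts of 1 and 0 to be read as a result.

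The 58 genes of other patterns behaved otherwise. They also varied by number, but in the median the 2 libraries of a number were close to equal. Their median log2 ratio of *Lhx3/4* to control was -0.08, 0.05 and -0.02 at numbers 1, 2 and 3. Single genes spread more widely than usual. The SD over genes was 0.92, 0.85 and 0.74 in the 58, against 0.59, 0.64 and 0.58 over all genes past the minimum. In 41 of 58 (70.7%) the ratio was within 2-fold at all 3 numbers, against 5 of the 87 (5.75%) and 87.6% of all genes past the minimum.

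In the genes high in number 1, both libraries of that number stood far above the rest. KH.C14.206 was at 97.8, 3.94 and 2.48 CPM in controls and at 85.3, 2.99 and 2.12 CPM in *Lhx3/4* libraries. KH.S461.4 was at 22.1, 1.93 and 1.42 CPM in controls and at 22.0, 2.07 and 2.37 CPM in *Lhx3/4* libraries. KH.C8.576 was at 21.8, 2.68 and 3.66 CPM in controls and at 37.5, 2.50 and 3.10 CPM in *Lhx3/4* libraries. In all 3 the groups overlapped, and the high libraries were the 2 of number 1.

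In the genes low in number 1, some were close to undetected there. KH.S2734.1 was at 1.63, 311 and 113 CPM in controls and at 0.304, 209 and 67.4 CPM in *Lhx3/4* libraries, the widest separation of the 145 genes. KH.C11.33 was at 0.292, 16.1 and 13.0 CPM in controls and at 0.513, 18.4 and 12.8 CPM in *Lhx3/4* libraries. KH.C11.596 met 2 patterns, low in number 1 and high in number 2, at 0.206, 31.3 and 9.12 CPM in controls and 0.399, 43.5 and 8.60 CPM in *Lhx3/4* libraries. Both libraries numbered 1 were under 1 CPM in 6 of the 20 genes of this pattern.

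In the genes high in number 2, both libraries of that number again stood above the rest. KH.C8.531 was at 2.21, 101 and 1.36 CPM in controls and at 1.42, 115 and 1.1 CPM in *Lhx3/4* libraries. KH.L119.32 was at 1.78, 106 and 0.943 CPM in controls and at 1.29, 78.8 and 1.76 CPM in *Lhx3/4* libraries. KH.S455.4 was at 4.17, 58.4 and 2.39 CPM in controls and at 0.931, 14.6 and 0.758 CPM in *Lhx3/4* libraries. The first of these was nearly equal between groups, whereas in KH.S455.4 the *Lhx3/4* library was lower at each number.

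The genes low in number 2 included some with few reads in those libraries. KH.C2.1134 was at 19.5, 0.16 and 10.9 CPM in controls and at 21.8, 0.0579 and 13.0 CPM in *Lhx3/4* libraries, which is 10 reads in control 2 and 4 reads in *Lhx3/4* 2. KH.XM_018812364.1 was at 10.9, 0.623 and 10.1 CPM in controls and at 12.2, 0.0145 and 11.52 CPM in *Lhx3/4* libraries, the 0.0145 CPM being 1 read. KH.L132.14 was at 10.2, 0.846 and 7.34 CPM in controls and at 13.9, 0.492 and 4.52 CPM in *Lhx3/4* libraries. In 3 of the 7 genes of this pattern both libraries were under 1 CPM.

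Of the 11 genes high in number 3, 3 had a library with 3 reads or fewer. KH.C11.674 was at 0.154, 0.144 and 15.1 CPM in controls and at 0.418, 0 and 14.6 CPM in *Lhx3/4* libraries, and the 0 reads of *Lhx3/4* 2 allow up to 0.0434 CPM (3 reads, counting error only). KH.S1062.3, also low in number 1, was at 0.0686, 4.18 and 65.0 CPM in controls and at 0.019, 1.88 and 30.4 CPM in *Lhx3/4* libraries. KH.C2.529, with the same 2 patterns, was at 0.566, 4.14 and 26.6 CPM in controls and at 0.057, 1.03 and 18.8 CPM in *Lhx3/4* libraries. In the last 2 genes number 1 was lowest, number 2 intermediate and number 3 highest in both groups.

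The size of the departure was often close in both groups. For each pattern, the fold was taken between the odd library and the geometric mean of the others of its group. The median log2 fold was 2.68 in controls and 2.41 in *Lhx3/4* libraries for number 1 high, and -3.44 and -3.62 for number 1 low. It was 3.53 and 3.55 for number 2 high and -2.50 and -2.66 for number 2 low. For number 3 it was 2.64 and 2.73 where high and -4.12 and -3.69 where low. The 2 values of a gene lay within 1 log2 unit of each other in 10 of 10, 15 of 20, 13 of 15, 6 of 7, 10 of 11 and 63 of 87 genes, in the same order. In that order too, the fold was larger in *Lhx3/4* libraries in 3, 13, 9, 5, 5 and 22 genes. In most of the 87 genes low in number 3 the departure was thus smaller in *Lhx3/4* libraries. The rule sets the direction and the minimum size of these folds in both groups, but not their likeness beyond that.

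**Figure D4:**
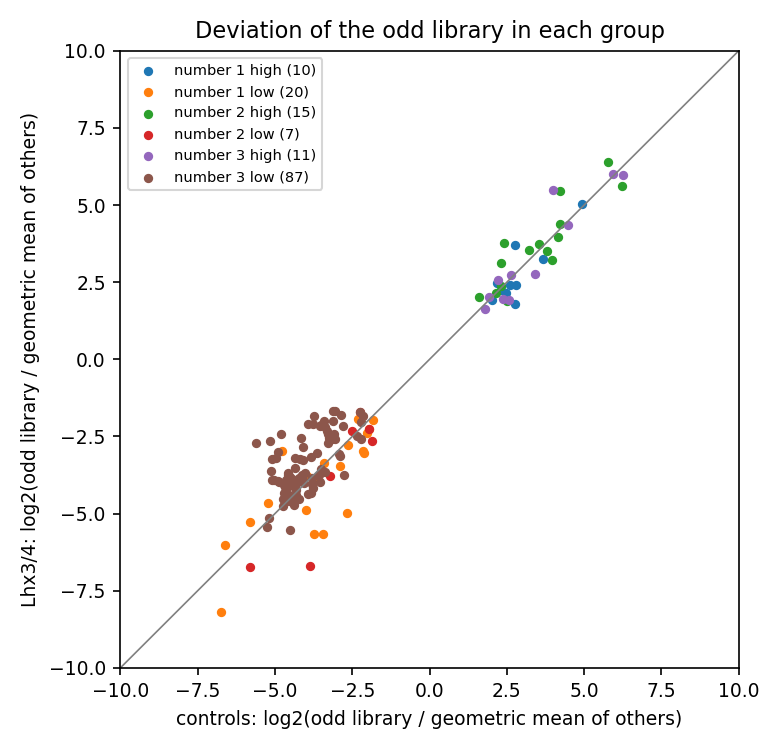
Log2 fold of the odd library over the geometric mean of the other libraries of its group (CPM + 0.1), in controls (x axis) against *Lhx3/4* libraries (y axis), 1 point for each gene and pattern. The rule leaves an empty band around 0, and 63 of the 87 genes low in number 3 lie within 1 log2 unit of equality.

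With the block, edgeR called 6 of the 58 genes lower in *Lhx3/4* libraries and 0 higher, or 10.3%, against 6.94% of all tested genes called lower. Without both libraries numbered 3 it called 0 of 57, where 2.58% of all tested genes were lower and 1.27% higher. That fit kept the odd library of genes odd at number 1 or 2, and its median standard error in these genes was 1.23. The 0 therefore cannot be read as an absence of difference.

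By identifier, 20 of the 145 genes (13.8%) lay on models named KH.S, against 7.88% of genes past the minimum. The share was 10.3% in the 87 genes and 19.0% in the 58. The scaffold prefix KH.L164 held 4 members, 3 low in number 3 and 1 low in number 1, and 4 other prefixes held 2 members each. Models that share a prefix may lie near each other or share reads, which could not be examined without the gene models.

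The members nearest the fold threshold were the following. KH.C12.218, low in number 3 with a smallest fold of 3.01, was at 108, 207 and 17.1 CPM in controls and at 64.9, 72.1 and 21.6 CPM in *Lhx3/4* libraries. KH.S511.1, high in number 2 with a smallest fold of 3.01, was at 16.5, 49.9 and 16.6 CPM in controls and at 3.78, 14.4 and 3.15 CPM in *Lhx3/4* libraries. KH.C6.226 and KH.L108.11 missed the rule with smallest folds of 2.98 and 2.94.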

How the data were processed

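The authors deposited HTSeq read counts per KH2012 gene model, 1 table a library, after alignment with HISAT2 to the ci3 assembly. FastQC and DESeq2 also appear in the submitters' processing notes. Versions, and whether counting used strand, were not given in the sources used here. A deposited table of the authors' own fold changes and p-values was not used. The 5 HTSeq summary lines were left out of library sizes. They held 4.88 to 9.63% (reads in no feature) and 12.1 to 19.5% (not aligned) of the reads.

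CPM was each count divided by the gene reads of its library, times 1000000, and log2 ratios within a number used CPM + 0.1. The test was edgeR 4.0.16 (quasi-likelihood, TMM factors 0.97 to 1.06, R 4.3.3) over 13641 genes with at least 100 reads in the 6 libraries. The thresholds were 0.05 for the p adjusted by Benjamini-Hochberg and 0.58 for the size of the log2 difference. The standard errors given for edgeR fits were back-calculated, as the size of the log2 fold change divided by the square root of the test's F statistic. Alternatives were the replicate number as a block, DESeq2 1.42.0, other scalings and filters, and leaving out each library. The procedure was tested on simulated data without pairing (13573 genes), where edgeR recovered 91 of 100 genes changed 4-fold and 18 of 100 changed 2-fold. It made 9 false calls there, and DESeq2 made 33. The simulation gave every gene the same dispersion and no effect of replicate number. Its recovery therefore does not carry over to the members, which the rule chose for a wide spread within groups.

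Whether the numbers pair the libraries was checked from the data, since the labels do not say what a number marks. The deviations from the group means of the 2 libraries of a number correlated at 0.549, 0.457 and 0.553 across 13641 genes for numbers 1 to 3, and at 0.513, 0.412 and 0.488 without the members. All exceeded 0.1, so the blocked values are printed beside the unblocked. The labels call the libraries biological replicates without stating their parents or electroporation, and a p-value reflects only how these libraries vary, which may in part be technical. Counting intervals and floors cover counting error only.

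The members and lists were chosen with earlier results of these data known. Genes named are, for each of the 6 patterns, the 3 of widest separation, the 5 of highest mean CPM, and the 2 on each side of the fold threshold. KH.C1.650 and KH.C3.814, and those named in the paragraphs on genes without a lower level and on the study's lists, were chosen after their values were seen. Of 15285 KH and 1241 RefSeq-like identifiers, 0 matched the RefSeq table. No sequence was printed.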

Additional observations from a re-analysis of the deposited data

How the results depend on the processing

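The 145 genes depend on the thresholds: a fold of 2 gave 280 genes and a minimum mean CPM of 1 gave 274, both including all 145, while a fold of 4 gave 109, a minimum of 10 gave 100 and TMM-scaled libraries gave 146 (143 shared). The calls between groups depend on how replicate number is treated. With the replicate block, edgeR called 644 genes higher and 947 lower, against 252 and 398 without it, and 75 members lower (69 of the 87 low in number 3 and 6 of the 58 others), against 0. DESeq2 called 478 higher and 746 lower, with 2 members lower (1 of the 87 and 1 of the 58), and gave no adjusted p to 10 of the 58. DESeq2 with the replicate block, chosen after seeing the data, called 800 and 1217, with 1 member higher and 79 lower (72 and 7). Without both libraries numbered 3, also chosen after seeing the data, edgeR called 166 higher and 338 lower, with 53 members lower, all among the 87. This fit kept the odd library of members odd at number 1 or 2. Leaving out 1 library at a time gave 147 to 305 genes higher and 246 to 426 lower, with 0 to 2 members lower, both of the 87 and both without control 3, and 0 higher. Other scalings and filters called 0 members. Outside the alternatives' own construction the cause of these shifts was not tested. Only KH.C1.650 and KH.C3.814, chosen after their values were seen, were followed in every fit, and both stayed lower in *Lhx3/4* libraries. Some other members changed sign between edgeR fits. KH.L65.12 had a log2 fold change of -0.30 without the block and 0.07 with it, and KH.C8.178 had 0.13 and -0.11. Read number limits the ratios of genes with 3 reads or fewer in a library, which were 0 of the 87, 2 of the 20 low in number 1, 1 of the 7 low in number 2 and 3 of the 11 high in number 3.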

Other observations

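Genes with the profile of the 87 were not limited to the members. A correlation of at least 0.98 with the median profile of the set was found in 101 of the 9225 genes past the CPM minimum, of which 65 were members and 36 were not. The 36 had a smallest fold between the libraries numbered 3 and the others of 1.39 in the median and 2.37 at most, under the 3-fold limit of the rule. They were not used in any comparison above.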
